A study of Mus musculus with 35 samples.

Results

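Slc7a11, Hmox1, Gclc, Gclm, Nqo1, Txnrd1, Srxn1, Gsta4, G6pdx and Osgin1 are antioxidant and detoxification genes commonly listed as targets of the transcription factor NRF2. They are 10 of the 24421 genes counted in RNA-seq libraries of immortalized Nelfb flox/- mouse embryonic fibroblasts (MEFs), and all 10 were found in the count tables. The set was picked from earlier readouts of the same libraries, because Slc7a11, Hmox1 and Gsta4 differed between constructs. The values of these 3 genes are therefore given as a description, with fold changes and standard errors but no p-value in any comparison, and tests are reported for the other 7. Gclc, Gclm, Nqo1, Txnrd1, Srxn1, G6pdx and Osgin1 are listed as targets of the same factor as the 3 chosen genes, so they are not independent of them.

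NELFB is a subunit of the negative elongation factor NELF, and the study asked which of its interactions the cells need. The cells started with 1 null and 1 floxed Nelfb allele. The populations carried a lentiviral pLenti construct, which was an empty vector (EV), flag-tagged wild-type NELFB (WT), MT194, MT486 or DMT, the last combining the MT194 and MT486 changes. By the study's description MT194 loses the interaction with NELFA and NELFC and is cytoplasmic, and MT486 loses the interaction with NELFE. Populations of each construct received adenovirus with Cre and GFP (Ad-Cre), which removes the floxed allele, or with GFP alone (Ad-GFP), and RNA was taken 7 days later from 2 replicates per group, 20 libraries in all. A further 15 libraries came from cells grown up from single cells after Ad-Cre, with 3 clones in each group. The groups were WT, MT194 and MT486 in pLenti, and the constructs labelled WT(N48) and Δ-C60. The latter, a C-terminal truncation, and WT(N48) are labelled as being in a pBabe vector, whereas the study's methods describe lentiviral infection for Δ-C60 too; by the labels those 2 groups differ from the first 3 in vector as well. The lentiviral backbone is a CMV-driven one by the study's methods, so the constructs do not follow the endogenous Nelfb promoter. The population libraries held 17969149 to 29080007 reads on genes each, and the clone libraries 18413284 to 27816723.

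Nelfb itself was read in every library before any other gene, given here as CPM (counts scaled to a fixed library total, after TMM normalization). In EV it was 46.1 and 39.5 CPM with Ad-GFP and 7.97 and 5.46 with Ad-Cre, a log2 fold change of -2.67 (SE 0.22, edgeR adjusted p = 2.53e-05). With Ad-Cre the counts that include the construct were 75.9 and 60.5 CPM in WT, 104 and 119 in MT194, 116 and 128 in MT486, and 169 and 208 in DMT. EV lost most of its Nelfb RNA after Ad-Cre; in the other constructs the counts join endogenous and construct RNA and do not show the deletion. The amount of Nelfb RNA was not equal among the constructs. Of the clones, those labelled WT held 10.3, 109 and 15.5 CPM, so WT clones 1 and 3 were near the level of EV-Cre. All 3 are called the libraries labelled WT below.

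The fibroblast label was checked against 10 markers, which summed to at least 8242 CPM in every library, although Thy1 was absent or nearly so. Col1a1 ranged from 3148 to 8539 CPM in the populations and from 1491 to 5619 in the clones, and Vim from 1065 to 1925 and from 2152 to 5644. Thy1 peaked at 0.114 CPM in the populations and 0.16 in the clones. The 11 markers of other cell types summed to 4.13 to 10.5 CPM per population library and 2.59 to 11.3 per clone, and the most abundant in the populations was Cd68, at 2.01 to 5.32 CPM. Of the epithelial markers Epcam and Krt8 peaked at 0.0979 and 0.148 CPM, while Cdh1 reached 2.02 and Krt18 1.06. Of the leukocyte and macrophage markers Ptprc and Adgre1 peaked at 0.12 and 0.05 CPM in the clones, while Csf1r reached 4.31 and Cd68 5.98, and of the endothelial markers Kdr reached 4.39, these highest values being in clones. The summed level of these markers was 8.47 and 10.5 CPM in EV-Cre against 4.97 and 8.05 in EV-GFP; its part in the results was not tested. With a replicate block (explained below), 2 of the 3 such markers tested were higher after Ad-Cre in EV, and of 9 fibroblast markers 2 were higher and 5 lower, where 25.4% of all genes were called. In bulk libraries like these, a different mix of cells and a different amount of RNA per cell cannot be told apart.

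NRF2, encoded by Nfe2l2, is held low by the adaptor Keap1, which hands it to a ubiquitin ligase. When reactive compounds modify Keap1, NRF2 accumulates, pairs with a small Maf protein and binds antioxidant response elements, while Bach1 occupies such elements as a repressor, above all at Hmox1. The targets raise cystine import and glutathione synthesis, break down heme, regenerate thioredoxin and peroxiredoxin, reduce quinones and supply NADPH. Slc7a11 is also a textbook target of ATF4, the factor of the amino acid and unfolded protein response.

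The antioxidant response element core was searched as TGACNNNGC on both strands of the windows from 250 bases upstream to 50 bases downstream of RefSeq gene starts (GRCm38.p6, the same sequence as mm10). Windows were given for 7 of the 10 members and the motif was in those of 4, Gclm, Txnrd1, Srxn1 and G6pdx. Of all 32851 windows 12.4% held it, and of the 27025 genes with a window 13.99%. Of the other NRF2 genes with a window 11 of 42 held it (26.2%), and of the regulators described below 4 of 9 (44.4%). The matches of the 4 members are shown, with those of Gsta3 and Maff, picked from these 15 because their Cre effect differed between WT and EV, 5' to 3' on the strand of the gene and with the motif or its reverse complement in capitals. Txnrd1, Srxn1, Gsta3 and Maff were called in EV below, and Gclm and G6pdx were not.
Gclm, chr3:122245413-122245441, plus strand, motif on the opposite strand, 126 bases upstream: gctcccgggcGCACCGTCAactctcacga
Txnrd1, chr10:82859104-82859132, plus strand, opposite strand, 84 bases upstream of an internal start: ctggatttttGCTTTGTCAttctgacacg
Srxn1, chr2:152105542-152105570, plus strand, opposite strand, 28 bases downstream: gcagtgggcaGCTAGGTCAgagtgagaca
G6pdx, chrX:74428919-74428947, minus strand, opposite strand, 49 bases upstream of a RefSeq start that lies inside the gene's GENCODE bounds: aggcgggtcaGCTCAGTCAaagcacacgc
Gsta3, chr1:21240454-21240482, plus strand, same strand, 113 bases upstream: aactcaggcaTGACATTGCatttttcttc
Maff, chr15:79346499-79346527, plus strand, same strand, 104 bases upstream: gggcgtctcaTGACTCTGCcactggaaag
The windows of Slc7a11, Nqo1 and Osgin1 did not hold these letters. A match is a description of the letters only, and elements outside the window were not searched.

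Slc7a11, the cystine-importing light chain of the cystine/glutamate exchanger (chr3:49892526-50443614, minus strand), had the largest difference of the 10 members. EV held 4.77 and 6.63 CPM with Ad-GFP and 46.1 and 63.9 with Ad-Cre. WT held 4.14 and 4.75 CPM with Ad-GFP and 6.0 and 6.49 with Ad-Cre, and MT194 held 5.59 and 7.01 against 7.3 and 8.91. Within a replicate number the Ad-Cre level in EV was 9.66 and 9.64 times the Ad-GFP level, whereas in MT194 it was 1.31 and 1.27 times. MT486 held 3.61 and 7.18 CPM with Ad-GFP and 9.76 and 21.8 with Ad-Cre, and DMT held 6.03 and 6.55 against 17.4 and 47.9. In MT486 and DMT the replicates after Ad-Cre were far apart, replicate 2 being the higher one, as it was for Slc7a11 in all 10 population groups. Ordered by mean, EV-Cre came first, then DMT-Cre and MT486-Cre, and the remaining 7 groups followed, with libraries between 3.61 and 8.91 CPM. The ranges of EV-Cre and DMT-Cre overlapped, as did those of DMT-Cre and MT486-Cre, while EV-Cre and MT486-Cre did not. The log2 fold change of Ad-Cre over Ad-GFP for Slc7a11 was 3.27 (SE 0.49) in EV, 2.37 (0.47) in DMT, 1.56 (0.47) in MT486, 0.49 (0.48) in WT and 0.36 (0.47) in MT194.

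Gclc and Gclm encode the catalytic and the modifier subunit of glutamate-cysteine ligase, the first step of glutathione synthesis. Gclc (chr9:77754535-77794485, plus strand) had 91.8 and 97.3 CPM in EV with Ad-GFP and 165 and 151 with Ad-Cre, and rose by 0.74 on the log2 scale (SE 0.15, adjusted p = 0.00527). In WT, Gclc had 87.6 and 105 CPM with Ad-GFP and 81.3 and 67.8 with Ad-Cre (log2 fold change -0.37, SE 0.15, adjusted p = 0.712), and in MT486 109 and 117 against 95.0 and 90.3 (-0.28, SE 0.15, adjusted p = 0.423). The sign of the Gclc change thus differed between EV and both of these constructs. For MT194 the values were 98.3 and 100.01 against 113 and 89.7, which overlap, and for DMT 93.2 and 106 against 135 and 136, which do not (0.44, SE 0.15, adjusted p = 0.0703). Gclm (chr3:122245557-122270732, plus strand) was 83.6 and 59.2 CPM in EV with Ad-GFP and 122 and 74.5 with Ad-Cre, and the 2 groups overlapped because replicate 1 of each was the higher one (0.46, SE 0.34, adjusted p = 0.43). Within a replicate number Gclm was 1.46 and 1.26 times its Ad-GFP level in EV, and 0.79 and 0.787 times in MT194.

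Gsta4, a glutathione transferase that conjugates the lipid peroxidation product 4-hydroxynonenal (chr9:78182774-78209349, plus strand), was low in all 10 Ad-GFP libraries, at 7.21 to 13.8 CPM. After Ad-Cre it was 65.3 and 42.5 CPM in EV and 24.0 and 36.9 in DMT, above every other population. In WT it was 7.82 and 7.54 CPM, in MT194 11.8 and 8.28, and in MT486 10.97 and 9.93, all within the range of the Ad-GFP libraries. EV-Cre and DMT-Cre did not overlap with each other for Gsta4. The log2 fold change was 2.75 (SE 0.29) in EV, 1.36 (0.27) in DMT, 0.23 (0.28) in MT194, 0.14 (0.28) in MT486 and -0.29 (0.28) in WT. Gsta4 belongs to a family of related transferases, and reads shared with its relatives cannot be traced here beyond the authors' filter on mapping quality.

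Hmox1, heme oxygenase 1 (chr8:75093621-75100589, plus strand), was the most abundant member per kilobase of exon in all 10 population groups; in the MT194 clones Gsta4 and in the Δ-C60 clones Txnrd1 had the higher mean. In EV Hmox1 was at 96.0 CPM per kilobase with Ad-GFP and 336 with Ad-Cre, against 0.409 and 3.95 for Slc7a11, the least abundant, using exon lengths from GENCODE. In CPM, Hmox1 was 197 and 139 in EV with Ad-GFP and 718 and 458 with Ad-Cre, and 191 and 149 against 357 and 493 in DMT. These were the only 2 constructs in which the Ad-Cre libraries lay above the Ad-GFP libraries without overlap. For WT the values of Hmox1 were 196 and 154 against 172 and 129, for MT194 195 and 148 against 216 and 175, and for MT486 170 and 119.5 against 171 and 144. The EV-Cre and DMT-Cre ranges overlapped. The log2 fold change of Hmox1 was 1.81 (SE 0.30) in EV, 1.33 (0.30) in DMT, 0.19 (0.29) in MT194, 0.12 (0.29) in MT486 and -0.22 (0.29) in WT.

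Txnrd1, thioredoxin reductase 1, and Srxn1, the sulfiredoxin that restores overoxidized peroxiredoxins, both serve thiol repair. Txnrd1 (chr10:82833951-82897712, plus strand) was 185 and 148 CPM in EV with Ad-GFP and 457 and 373 with Ad-Cre, a rise of 1.32 on the log2 scale (SE 0.23, adjusted p = 0.00235). In DMT it rose from 173 and 135 CPM to 297 and 329 (1.02, SE 0.23, adjusted p = 0.0117). After Ad-Cre the other 3 constructs held 174 to 246 CPM of Txnrd1, none reaching the libraries of EV or DMT. Srxn1 (chr2:152105516-152111376, plus strand) rose from 78.2 and 55.2 CPM to 173 and 111 in EV (1.09, SE 0.33, adjusted p = 0.0454). In DMT Srxn1 was 73.2 and 53.9 CPM against 98.9 and 116 (0.76, SE 0.33, adjusted p = 0.17). The remaining 6 groups of WT, MT194 and MT486 all lay between 49.3 and 82.5 CPM of Srxn1.

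Nqo1, the quinone reductase, G6pdx, which opens the pentose phosphate pathway and makes NADPH, and Osgin1, an oxidative stress-induced growth inhibitor, complete the set. Nqo1 (chr8:107388225-107403206, minus strand) was 8.6 and 7.85 CPM in EV with Ad-GFP and 27.8 and 14.9 with Ad-Cre, and rose by 1.38 on the log2 scale (SE 0.30, adjusted p = 0.00928). Osgin1 (chr8:119434124-119446256, plus strand) rose from 45.4 and 41.9 to 77.4 and 61.1 CPM in EV (0.67, SE 0.14, adjusted p = 0.00818) and from 44.1 and 39.3 to 59.6 and 61.1 in DMT (0.53, SE 0.14, adjusted p = 0.0286). Outside EV-Cre and DMT-Cre no population exceeded 54.4 CPM of Osgin1. G6pdx (chrX:74409483-74429194, minus strand) was 83.3 and 74.5 CPM in EV with Ad-GFP and 123 and 96.4 with Ad-Cre (0.47, SE 0.17, adjusted p = 0.0846). G6pdx had a positive fold change in all 5 constructs, from 0.13 (SE 0.17) in WT to 0.48 (SE 0.17) in DMT, and was called in none.

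**Figure D1:**
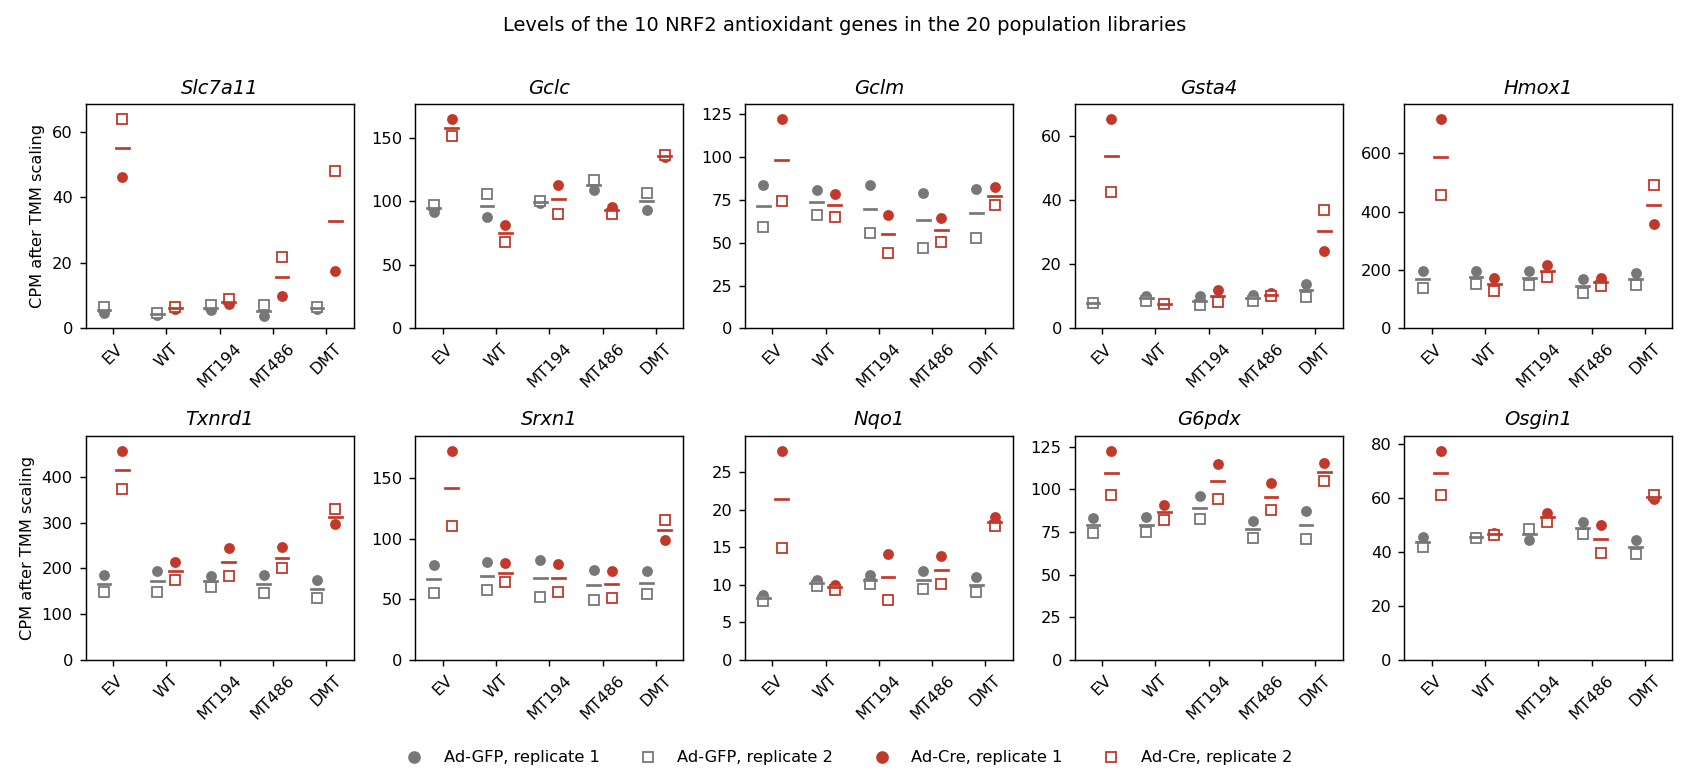
Level of each of the 10 genes in the 20 population libraries, in CPM after TMM scaling on a linear axis from 0, by construct; grey is Ad-GFP, red Ad-Cre, filled circles are replicate 1, open squares replicate 2, and short lines are means. For the 7 tested members the highest library is one of EV with Ad-Cre. By mean EV with Ad-Cre is also highest, except that for G6pdx DMT with Ad-Cre is level with it (110.1 against 109.6 CPM). The 3 chosen genes, picked for differences between constructs, are highest in EV with Ad-Cre as well. The share of all genes with this order was not counted.

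A gene was called at an edgeR quasi-likelihood adjusted p under 0.05 with an absolute log2 fold change over 0.5, and p-values were adjusted over all 13805 genes tested in the populations. In EV, 5 of the 7 tested members were called after Ad-Cre, all higher (Gclc, Nqo1, Osgin1, Srxn1, Txnrd1), and the median log2 fold change of the 7 was 0.74 against 0.00 for all genes. The background was large here, as 11.8% of all genes tested were called in EV. In DMT, 2 of 7 were called (Osgin1 and Txnrd1) at a background of 9.92%, with all 7 fold changes above 0 and a median of 0.53. In WT, MT194 and MT486 none of the 7 was called by edgeR, at backgrounds of 0.0217%, 4.22% and 2.42%. The members with an unadjusted p under 0.05 numbered 1, 0 and 0, beside 859, 2267 and 2002 of all genes. DESeq2 called none of the 7 in any of these 3 constructs, beside 61, 901 and 688 of all genes. The fold changes of the 7 ranged from -0.37 to 0.18, -0.34 to 0.32 and -0.28 to 0.43. Gclc and Txnrd1 were called in EV whichever of the 4 EV libraries was left out. Nqo1, Osgin1 and Srxn1 were not. Leaving out a library leaves 1 in its group and lowers the power for every gene. How many of all genes were called in these fits is not given here. In DMT, Osgin1 was not called when any 1 of the 4 DMT libraries was left out, nor Txnrd1 without replicate 2 of DMT-Cre or of DMT-GFP.

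Replicate 1 was above replicate 2 in all 10 population groups for Gclm, Nqo1 and G6pdx, and in 9 of 10 for Hmox1, Gsta4, Txnrd1 and Srxn1. Since libraries with the same number deviated together, a second fit, with that number as a block, is given beside the first. In EV the block changed none of the member calls, and 25.4% of all genes were called. In DMT it raised the members called from 2 to 4, adding Srxn1 (0.80, SE 0.16, adjusted p = 0.00103) and Nqo1 (0.89, SE 0.18, adjusted p = 0.00087), at a background of 23.1%. In the same blocked comparison 1 of 3 tested markers of other cell types was higher, and of 9 fibroblast markers 2 were higher and 3 lower; their part in the result was not tested. In WT, MT194 and MT486 the block still called 0 of the 7 members, at backgrounds of 3.09%, 14.5% and 12.1%. Below the fold threshold, Txnrd1 and G6pdx, both higher, passed the adjusted p in MT194 and MT486, and Gclm, which was lower, in MT194. The largest of these changes was Txnrd1 in MT486 (0.43, SE 0.11, adjusted p = 0.0067). How many of all genes passed the adjusted p alone is not given here.

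**Figure D2:**
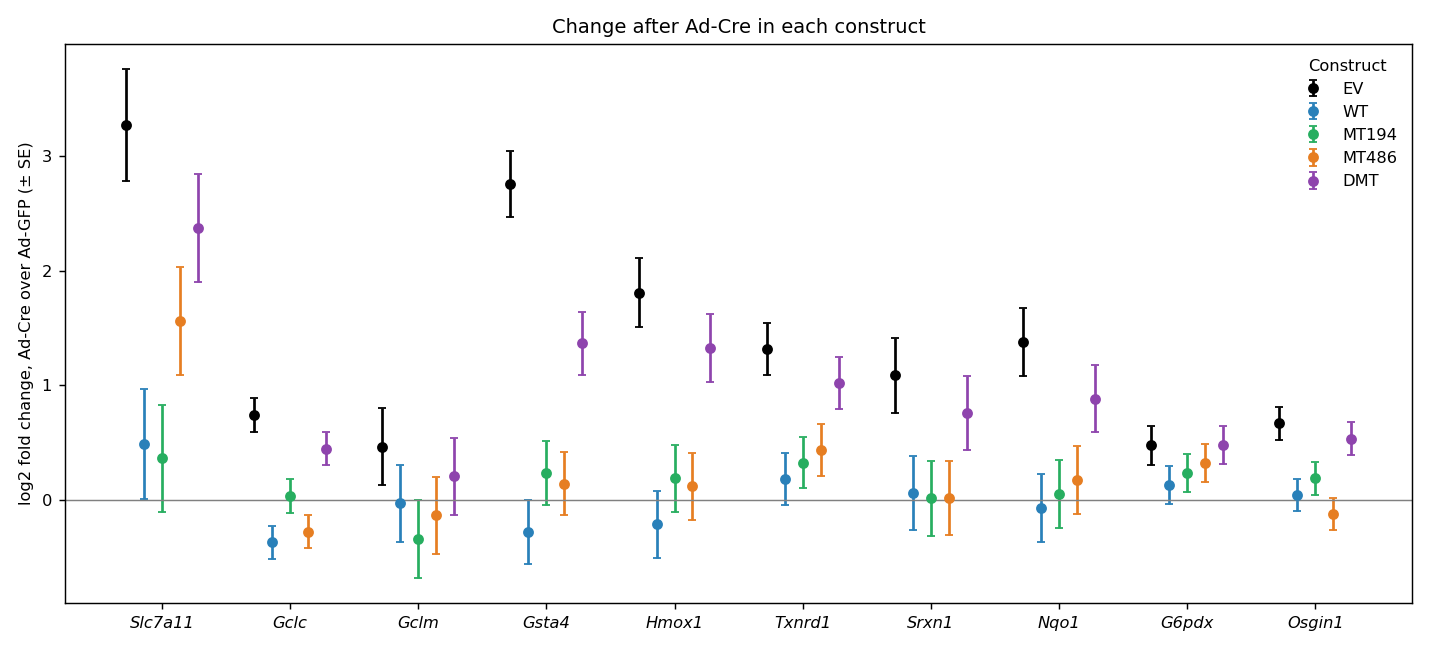
Log2 fold change of Ad-Cre over Ad-GFP (points) with its standard error from edgeR (bars) for each of the 10 genes, coloured by construct. The EV and DMT points lie above the other 3 constructs for the 7 tested members, but bars overlap for Gclm and G6pdx. They do so too for the 3 chosen genes, which were picked for differences between constructs. The share of all genes with this order was not counted. For Slc7a11 bars overlap between DMT and MT486, and MT486 (1.56) stands between DMT (2.37) and WT (0.49).

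Whether a construct kept the members low was tested against EV with Ad-Cre, and the comparisons of the 4 constructs share the EV-Cre libraries. With WT, 4 of the 7 members were lower than in EV, at a background of 7.37%: Gclc (-1.08, SE 0.15, adjusted p = 0.00123), Txnrd1 (-1.10, SE 0.23, adjusted p = 0.0114), Nqo1 (-1.14, SE 0.29, adjusted p = 0.0333) and Osgin1 (-0.57, SE 0.14, adjusted p = 0.0277). Of these, Gclc alone was also called whichever of the 4 libraries was left out. With MT486 Gclc was called by edgeR (-0.77, SE 0.15, adjusted p = 0.0448), at a background of 0.362%. In this comparison 6 of the 7 had an unadjusted p under 0.05, beside 1676 of all 13805 genes. DESeq2 called 4 of the 7, beside 410 of all genes. The Gclc call in MT486 was lost when any 1 of the 4 libraries was left out and without the filter on low counts. With MT194 edgeR called none of the 7, at a background of 0.225%. However, 6 of the 7 had an unadjusted p under 0.05, beside 1326 of all 13805 genes. DESeq2 called 2 of the 7, beside 210 of all genes. The median log2 fold changes of the 7 were -0.98 in WT, -0.84 in MT194 and -0.78 in MT486, against -0.02, 0.01 and -0.01 for all genes. With DMT none of the 7 was called, at a background of 0.00724%. The count at an unadjusted p under 0.05 was also 0, beside 447 of all 13805 genes. By DESeq2 it was 0 as well, beside 7 of all genes. The fold changes in DMT ran from -0.41 for Txnrd1 to 0.01 for G6pdx, with a median of -0.22 against -0.01 for all genes.

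With the replicate block, the calls against EV with Ad-Cre were 5 of 7 members in WT, 5 in MT194, 6 in MT486 and 0 in DMT, where 23%, 6.22%, 8.95% and 0.348% of all genes were called. In the same blocked comparisons 2 of the 3 tested markers of other cell types were lower in WT, in MT194 and in MT486, and of 9 fibroblast markers 5 were higher in WT (and 1 lower), 5 in MT194, 1 in MT486 and 1 in DMT; their part in the result was not tested. The members called in MT194 were Gclc (-0.64, SE 0.11, adjusted p = 0.0019), Gclm (-0.83, SE 0.12, adjusted p = 0.00041), Txnrd1 (-0.96, SE 0.11, adjusted p = 4.34e-05), Srxn1 and Nqo1. In MT486 they were the same 5 and Osgin1 (-0.63, SE 0.10, adjusted p = 0.000694). G6pdx was called against EV-Cre in none of the 4 constructs, with log2 fold changes of -0.33 in WT, -0.06 in MT194, -0.19 in MT486 and 0.01 in DMT under the block.

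The difference between the Cre effects of a construct and of EV was tested as an interaction, which takes out the Ad-GFP level of each construct. Without the block, 1 member was called in WT (Gclc, -1.11, SE 0.21, adjusted p = 0.0299), at a background of 0.681%. This call was lost when any 1 of the 8 libraries was left out and without the filter on low counts. None was called in MT194, MT486 or DMT by edgeR, each at a background of 0.00724%. At an unadjusted p under 0.05 there were 5, 5 and 0 of the 7 members, beside 444, 715 and 159 of all 13805 genes. DESeq2 called 0, 1 and 0 members, beside 19, 45 and 1 of all genes. With the replicate block the difference from EV was called for 5 members in WT, 5 in MT194, 5 in MT486 and 0 in DMT, at backgrounds of 13.4%, 0.978%, 2.68% and 0.00724%. In the same blocked differences 1 of 3 tested markers of other cell types was lower in WT. Of 9 fibroblast markers 2 were higher in WT, 1 in MT194 and 1 in MT486. The part of these markers in the result was not tested. Gclc, Txnrd1, Srxn1 and Nqo1 were called in all of WT, MT194 and MT486, with smaller Cre effects than in EV. In MT194 the blocked differences were -0.71 for Gclc (SE 0.16, adjusted p = 0.0438), -1.01 for Txnrd1 (SE 0.15, adjusted p = 0.00415), -1.06 for Srxn1 (SE 0.22, adjusted p = 0.0379), -1.31 for Nqo1 (SE 0.26, adjusted p = 0.0245) and -0.79 for Gclm (SE 0.17, adjusted p = 0.0343). The call of Gclm was made in MT194 alone of these 3 and that of Osgin1 in WT and MT486, but the constructs were not tested against each other. For DMT the blocked differences lay between -0.45 (Nqo1, SE 0.26) and 0.02 (G6pdx, SE 0.10). DMT was not tested against MT194 or MT486 directly. For the chosen genes, whose direction the choice itself fixed, the values are a description: for MT194 minus EV, Slc7a11 -2.91 (SE 0.66), Gsta4 -2.52 (0.39) and Hmox1 -1.62 (0.42), and for DMT minus EV, Slc7a11 -0.90 (0.65), Gsta4 -1.39 (0.38) and Hmox1 -0.48 (0.41).

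The Ad-GFP groups are parallel cultures, taken on the same day, that kept the floxed allele. With Ad-GFP, 0 of the 7 members were called in WT, MT194, MT486 or DMT against EV (edgeR), at backgrounds of 0%, 0%, 0.00724% and 0%. None had an unadjusted p under 0.05, beside 84, 276, 252 and 175 of all genes. DESeq2 called none of the 7, beside 1, 5, 10 and 3 of all genes. The largest fold changes of the 7 were those of Nqo1, at 0.31 in WT, 0.38 in MT194, 0.37 in MT486 and 0.28 in DMT, with standard errors of 0.30 and no call. Among the chosen genes, Gsta4 was 13.8 and 9.86 CPM in DMT against 8.11 and 7.85 in EV, without overlap (log2 fold change 0.57, SE 0.28).

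A wider list of NRF2 targets was read beside the members, 56 genes including the 7 tested members, of which 51 were tested in the populations. In EV, 15 of the 51 (29.4%) were called after Ad-Cre against 11.8% of all genes, 11 higher and 4 lower, with a median log2 fold change of 0.15 against 0.00 for all genes. Fewer list genes were called when any 1 of the 4 EV libraries was left out, in fits whose share of all genes is not given here. Outside the members 6 rose, the 5 with the largest change being Esd, the S-formylglutathione hydrolase (1.64, SE 0.23, adjusted p = 0.000569), the glutathione transferase Gsta3 (1.43, SE 0.28, adjusted p = 0.00585), the peroxiredoxin Prdx6 (1.197, SE 0.36, adjusted p = 0.043), Sesn2 (0.89, SE 0.24, adjusted p = 0.0283) and Pgd (0.66, SE 0.13, adjusted p = 0.00532). Those that fell were the cytosolic isocitrate dehydrogenase Idh1 (-2.27, SE 0.38, adjusted p = 0.00188), the iron exporter Slc40a1 (-2.07, SE 0.58, adjusted p = 0.0329), the microsomal transferase Mgst3 (-1.27, SE 0.21, adjusted p = 0.00159) and the transketolase Tkt (-0.61, SE 0.15, adjusted p = 0.0163). By role, 4 of 7 thioredoxin and peroxiredoxin genes were called, all higher, and of 6 NADPH-supplying genes 2 rose and 2 fell. Other roles were nearer to the 11.8% of all genes: 3 of 17 genes of glutathione synthesis and use were called (17.6%), 2 of 12 of quinone and aldehyde detoxification (16.7%) and 1 of 6 of heme and iron handling (16.7%). Idh1 was 257 and 189 CPM in EV-GFP against 62.3 and 30.4 in EV-Cre. The Ad-Cre libraries lay below the Ad-GFP libraries of the same construct in the others too. Idh1 went from 273 and 182 CPM to 98.5 and 64.0 in MT194, from 231 and 153 to 85.9 and 61.3 in MT486, from 281 and 224 to 83.5 and 55.7 in DMT, and from 246 and 210.3 to 158 and 138 in WT. The block raised the list count in EV from 15 to 22, including all 15, where 25.4% of all genes were called.

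In the other constructs the list gave 0 calls of 51 in WT, 1 in MT194 (Idh1, -1.48, SE 0.37, adjusted p = 0.0372), 0 in MT486 and 8 in DMT by edgeR, where 0.0217%, 4.22%, 2.42% and 9.92% of all genes were called. The 8 in DMT are 15.7% of the list. Fewer were called when any 1 of the 4 DMT libraries was left out, in fits whose share of all genes is not given here. At an unadjusted p under 0.05 there were 3, 8, 6 and 22 list genes in WT, MT194, MT486 and DMT. Over all 13805 genes these counts were 859, 2267, 2002 and 3433. DESeq2 called 0, 4, 1 and 10 list genes, beside 61, 901, 688 and 1755 of all genes. The 8 in DMT were Txnrd1, Osgin1, Esd (1.37, SE 0.23, adjusted p = 0.00206) and the glutathione synthetase Gss (0.64, SE 0.18, adjusted p = 0.0353), higher, and Slc40a1 (-1.94, SE 0.57, adjusted p = 0.0473), Idh1 (-1.86, SE 0.37, adjusted p = 0.00655), Gstm2 (-1.16, SE 0.33, adjusted p = 0.0404) and Mgst3 (-0.93, SE 0.20, adjusted p = 0.0108), lower. With the block the counts were 3 in WT, 9 in MT194, 8 in MT486 and 18 in DMT, beside 3.09%, 14.5%, 12.1% and 23.1% of all genes, so that in MT194 and MT486 the list was near the share of all genes. In MT194 the blocked calls outside the members were 3 higher and 6 lower, Gsta3 among the lower ones, although Gsta3 was higher in EV. Gsta3 was 9.91 and 8.15 CPM in EV-Cre against 3.59 and 3.12 in EV-GFP, and 2.8 and 2.79 in MT194-Cre against 6.97 and 4.18 in MT194-GFP. The interaction of Gsta3 was called for WT without the block (-2.10, SE 0.40, adjusted p = 0.0371), and not when any 1 of the 8 libraries was left out.

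**Figure D3:**
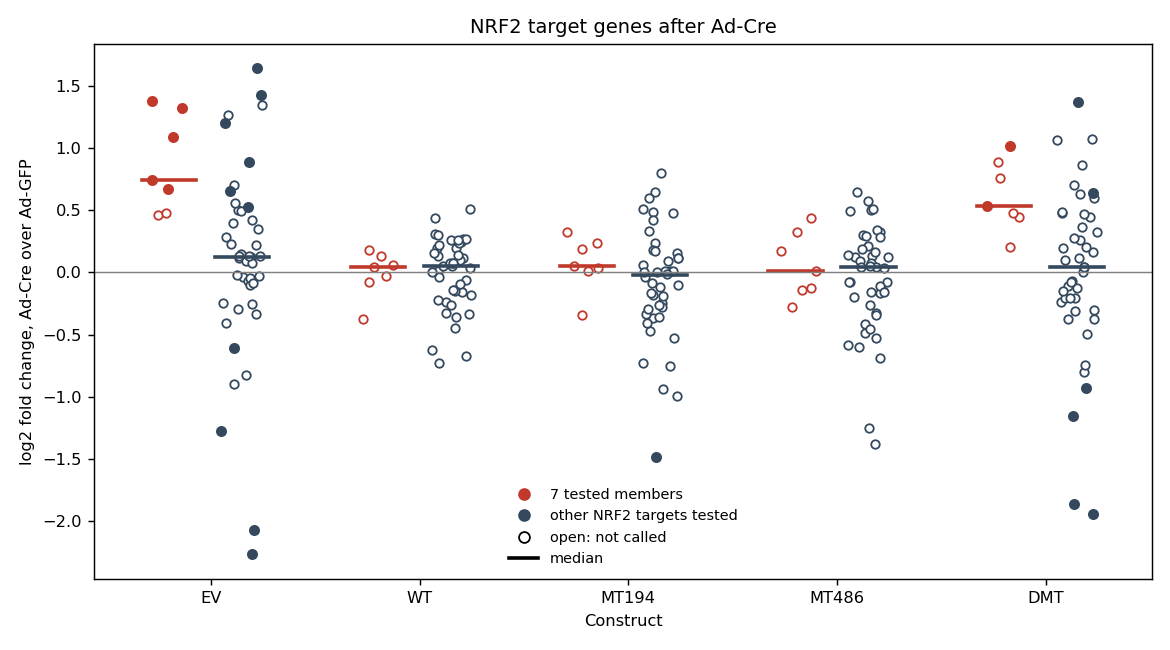
Log2 fold change of Ad-Cre over Ad-GFP in each construct for the 7 tested members (red) and the 44 other tested NRF2 target genes (blue); filled points were called by edgeR, open points were not, and lines are medians. Red medians stand at 0.74 in EV and 0.53 in DMT and near 0 in WT, MT194 and MT486, while the blue medians stay between -0.03 and 0.13.

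After Ad-Cre, list genes against EV gave 10 calls of 51 in WT (19.6%, against 7.37% of all genes), 3 higher (Idh1, Mgst3 and Gstt1) and 7 lower, with Gsta3 (-1.53, SE 0.28, adjusted p = 0.00762), Esd (-1.29, SE 0.22, adjusted p = 0.00538) and Pgd (-0.61, SE 0.13, adjusted p = 0.0131) beside the 4 members. Idh1 was higher by 1.68 (SE 0.37, adjusted p = 0.0164) and Mgst3 by 1.23 (SE 0.21, adjusted p = 0.00453). Fewer than these 10 were called when any 1 of the 4 libraries was left out, in fits whose share of all genes is not given here. In MT194 the 1 list gene called was Gsta3 (-1.69, SE 0.29, adjusted p = 0.0401), in MT486 it was Gclc, and in DMT there was none by edgeR, where 0.225%, 0.362% and 0.00724% of all genes were called. Both calls were lost when any 1 library was left out. DESeq2 called 6, 9 and 0 list genes in MT194, MT486 and DMT, beside 210, 410 and 7 of all genes. At an unadjusted p under 0.05 there were 15, 16 and 2, beside 1326, 1676 and 447 of all 13805 genes. With the block the list counts in WT, MT194, MT486 and DMT became 19, 17, 19 and 0, where 23%, 6.22%, 8.95% and 0.348% of all genes were called.

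The regulators of NRF2 were read as a separate list of 10 genes. Nfe2l2 was 238 and 203 CPM in EV with Ad-GFP and 279 and 211 with Ad-Cre (0.15, SE 0.21, adjusted p = 0.706), Keap1 was 104 and 87.6 against 108 and 105 (0.15, SE 0.15, adjusted p = 0.567), and Bach1 was 126 and 97.5 against 123 and 102 (0.00, SE 0.24, adjusted p = 0.996). These 3 were called in no comparison, with or without the block. Of the 10, 2 were called in EV (against 11.8% of all genes), the small Maf genes Maff and Mafk. Maff rose from 15.6 and 12.7 CPM to 85.6 and 66.0 in EV (2.42, SE 0.27, adjusted p = 0.000167), from 14.1 and 9.76 to 59.5 and 72.2 in DMT (2.47, SE 0.28, adjusted p = 0.000164), and from 14.3 and 14.3 to 35.3 and 39.2 in MT194 (1.38, SE 0.27, adjusted p = 0.0107). In MT486, Maff was 21.1 and 14.2 CPM against 37.7 and 37.1 (1.08, SE 0.27, adjusted p = 0.0518). Mafk rose by 1.62 (SE 0.27, adjusted p = 0.00189) in EV and by 1.47 (SE 0.27, adjusted p = 0.00418) in DMT. In WT, Maff was 20.7 and 12.5 CPM against 24.1 and 18.6, and its Cre effect was smaller than in EV (interaction -2.05, SE 0.38, adjusted p = 0.0299), a call kept without replicate 2 of WT-GFP and lost without any other of the 8 libraries. After Ad-Cre, Maff (-1.83), Mafk (-1.27) and Mafg (-0.71, SE 0.17, adjusted p = 0.0257) were lower in WT than in EV, where 7.37% of all genes were called. The replicate block also called Maff higher after Ad-Cre in MT486 (1.09, SE 0.21, adjusted p = 0.00209) and Mafk higher in MT194 (0.93, SE 0.19, adjusted p = 0.00261) and MT486 (0.88, SE 0.19, adjusted p = 0.00458), so that 2 of 10 regulators were called in each, beside 14.5% and 12.1% of all genes. Against EV with Ad-Cre it called Maff, Mafk and Mafg lower in MT194 and Maff and Mafk lower in MT486, beside 6.22% and 8.95% of all genes. In the differences of Cre effects from EV it added Mafk and Mafg for WT, and Maff and Mafg for MT486, beside 13.4% and 2.68% of all genes.

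Sod1, Sod2, Cat, Hmox2 and Txnrd2 were read as antioxidant genes outside the NRF2 list. They gave 0 calls of 5 in each construct by edgeR, where 11.8% of all genes were called in EV and 9.92% in DMT. With the block 1 of them was lower in EV and in DMT (Hmox2) and 1 in MT486 (Txnrd2), beside 25.4%, 23.1% and 12.1% of all genes. The ATF4 genes, read because Slc7a11 is shared with that pathway, gave 4 calls of 8 in EV, against 11.8% of all genes, all higher: Trib3 (2.10, SE 0.29, adjusted p = 0.000576), the asparagine synthetase Asns (1.04, SE 0.18, adjusted p = 0.00233), Shmt2 (0.74, SE 0.14, adjusted p = 0.00417) and Ddit3 (0.67, SE 0.20, adjusted p = 0.0487). In DMT 3 were called (9.92% of all genes), Trib3 (1.46), Shmt2 (0.78) and Asns (0.81), in MT486 1 (2.42% of all genes), Shmt2 (0.70, SE 0.14, adjusted p = 0.0201), and in WT and MT194 0. With the block the counts were 5 in EV and 4 in DMT, each adding Chac1, 2 in WT, Psat1 (0.62, SE 0.12, adjusted p = 0.00687) and Shmt2 (0.63, SE 0.11, adjusted p = 0.00376), 1 in MT486 and 0 in MT194, where 25.4%, 23.1%, 3.09%, 12.1% and 14.5% of all genes were called. Trib3 was 11.8 and 7.56 CPM in EV-GFP and 36.3 and 46.9 in EV-Cre, and after Ad-Cre it was lower than in EV in WT (-1.60, adjusted p = 0.00615), MT194 (-1.60, adjusted p = 0.0442) and MT486 (-1.63, adjusted p = 0.0303). Against EV with Ad-Cre the block called 3 ATF4 genes lower in WT, 5 in MT194, 4 in MT486 and 1 in DMT, beside 23%, 6.22%, 8.95% and 0.348% of all genes; Trib3 alone was called without the block in the first 3 and none in DMT. In the blocked differences, 5 ATF4 genes had smaller Cre effects in MT194 than in EV, 4 in WT and 3 in MT486, beside 0.978%, 13.4% and 2.68% of all genes. The share of each pathway in the Slc7a11 level was not tested.

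The genes most like the chosen ones were sought among 10600 genes averaging 5 CPM or more, by the mean absolute difference of centred log2 CPM over the 10 population groups. For Slc7a11, whose profile spanned 3.59 log2 units, these were Ero1l (0.31), Plk2 (0.36) and Gsta4 (0.36). Ero1l, an oxidase that forms disulfide bonds in the endoplasmic reticulum, averaged 298.9 CPM in EV-Cre and 207.6 in DMT-Cre, 109.8 and 77.9 in MT194-Cre and MT486-Cre, and 40.1 to 50.1 in the other 6 groups. For Hmox1 they were Ciart, 1810011O10Rik and Edn1, each at 0.16 or 0.17 of a 2.01 span, and for Gsta4 they were Alpl (0.25), Hmox1 (0.25) and 1810011O10Rik (0.25) of a 2.76 span. Slc7a11, Hmox1 and Gsta4 were picked for differences between constructs in these libraries. A likeness among them therefore follows in part from the choice. Edn1, the endothelin 1 gene, averaged 73.9 CPM in EV-Cre and 56.2 in DMT-Cre against 26.4 and 25.4 with Ad-GFP.

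In the clones the groups overlapped for most members. Slc7a11 was 34.6, 19.8 and 16.5 CPM in the libraries labelled WT, 84.9, 49.1 and 83.8 in MT194 and 20.7, 14.2 and 33.1 in MT486. The WT(N48) clones held 25.4, 98.8 and 4.66 CPM of Slc7a11 and the Δ-C60 clones 21.5, 153 and 4.0. Every MT194 clone was thus above every clone labelled WT (log2 fold change 1.62, SE 1.08), while both groups labelled pBabe ran from under 5 CPM to over 90. Gsta4 was 277, 184 and 164 CPM in MT194, 74.3, 110 and 59.5 in the libraries labelled WT, and 5.73, 4.38 and 72.7 in MT486. MT486 clone 3 stood apart from the other 2 clones of its group in Gsta4, and the Δ-C60 clones held 5.34, 88.4 and 4.44 CPM. Hmox1 was 92.0, 99.3 and 99.9 CPM in Δ-C60, the closest group of clones, and 162, 309 and 446 in the libraries labelled WT. Δ-C60 clone 2 was the highest of its group for Slc7a11, Gclc, Gclm, Gsta4, Txnrd1, Srxn1, Nqo1 and G6pdx.

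MT486 clones 1 and 2 were closer to each other than any other clones of a group. The chi-square of their counts per gene was 5.06 over genes with at least 20 reads, against 32.4 for the next closest pair, WT clones 1 and 3. They differed by more than sampling noise and were kept as 2 libraries, though the spread among MT486 clones may then be too small. Leaving out either changed no count of the NRF2 list in the MT486 comparisons.

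Against the libraries labelled WT, 0 of the 7 tested members were called in MT194 clones, at a background of 2.9%, and 0 in MT486 clones, at a background of 0%. Against WT(N48), 0 were called in Δ-C60 clones, at a background of 0%; the WT(N48) clones against those labelled WT gave 0 at 2.1%, and MT486 against MT194 clones gave 0 at 0.348%. The members with an unadjusted p under 0.05 were 0, 1, 0, 2 and 1 in these 5 comparisons in the same order. Over all 13223 genes these counts were 2796, 1176, 1540, 2775 and 2473. DESeq2 called 0, 0, 0, 2 and 0 members, beside 1170, 156, 230, 1169 and 800 of all genes. The nearest to a call was Osgin1, at 7.86, 9.64 and 25.05 CPM in WT(N48) against 50.4, 38.3 and 49.1 in the libraries labelled WT (-1.69, SE 0.41, adjusted p = 0.0514). Osgin1 was also 13.6, 11.6 and 5.08 CPM in Δ-C60 and 37.5 to 57.5 in the MT194 and MT486 clones, so the 6 clones labelled pBabe lay below all 9 labelled pLenti. Vector and construct cannot be told apart here, and the vector itself rests on the labels. Of the 53 list genes tested in the clones, 1 was called, Gstt1, lower in WT(N48) than in the libraries labelled WT (-2.82, SE 0.55, adjusted p = 0.03), and it was 10.9 CPM in WT clone 2 against 50.6 and 48.5 in clones 1 and 3. That call was lost with the replicate block, with WT clone 2 alone as comparator and without WT clone 1 or 3 or WT(N48) clone 1 or 2. DESeq2 called 5 list genes in the same comparison, beside 1169 of all 13223 genes, so this count is no result about the list. In Δ-C60 against WT(N48) the list count went from 0 to 6 without Δ-C60 clone 2. How many of all genes were called in that fit is not given here, so this count does not set the list apart from all genes. Beyond the list, Cat was higher in MT194 clones than in those labelled WT (0.99, SE 0.20, adjusted p = 0.0292), at 274, 220.2 and 219 CPM against 136, 99.3 and 122, and Atf4 was higher in WT(N48) (0.77, SE 0.17, adjusted p = 0.0414). The call of Cat was lost with the replicate block, where 0 of the 5 antioxidant genes outside the NRF2 list were called. With WT(N48) as the comparator, Osgin1 was called in MT194 clones, which the labels place in the other vector. How many of all genes were called there is not given here.

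**Figure D4:**
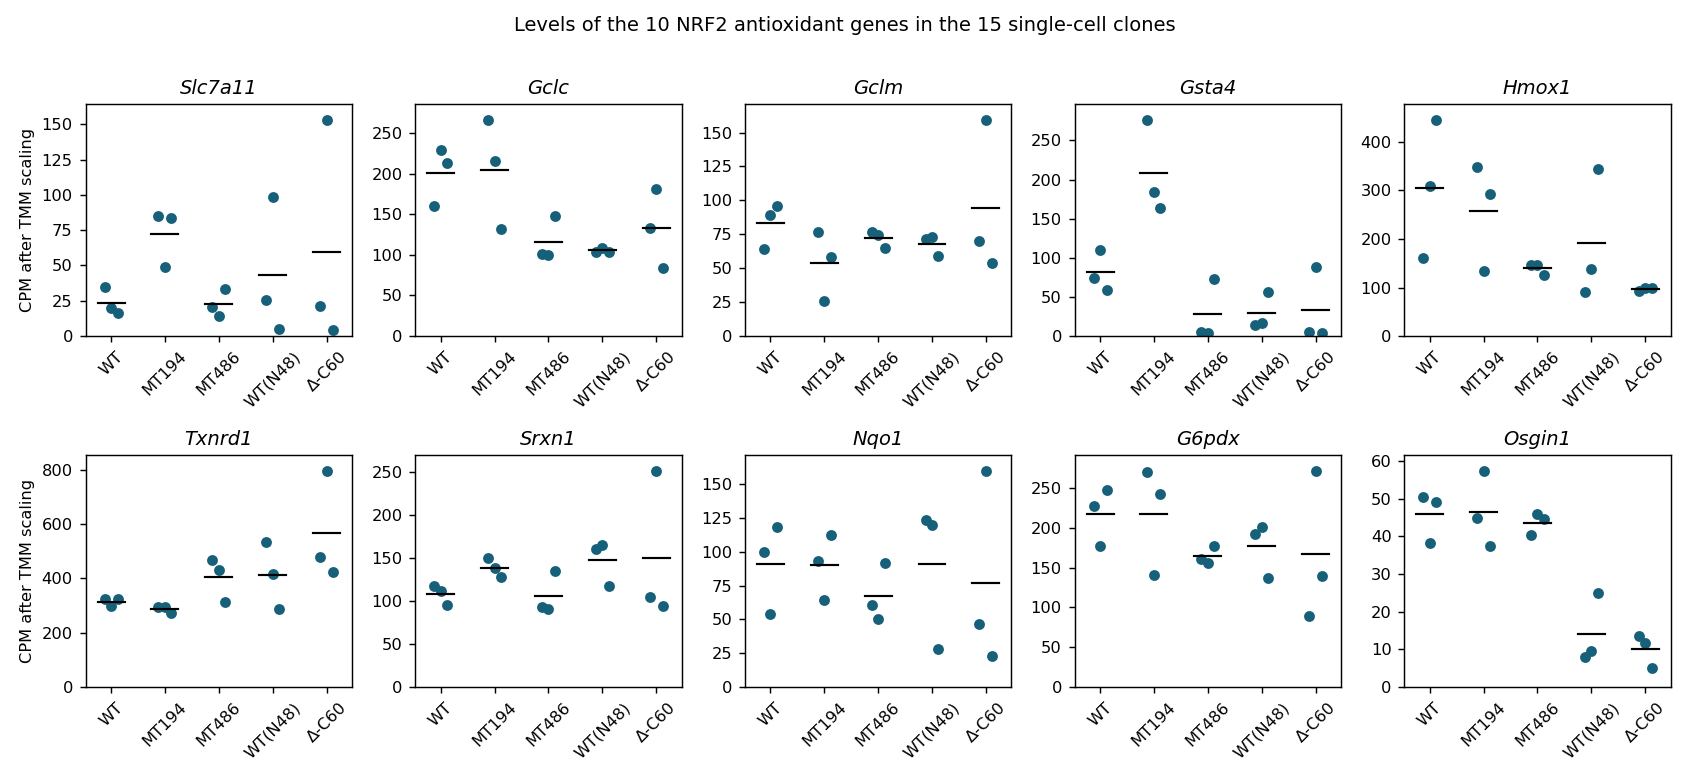
Level of each of the 10 genes in the 15 single-cell clones, in CPM after TMM scaling on a linear axis from 0; each point is 1 clone, in the order 1 to 3 within a group, and lines are means. Osgin1 is lower in all 6 clones labelled pBabe, WT(N48) and Δ-C60, than in the 9 labelled pLenti, and the highest Slc7a11 point is Δ-C60 clone 2 at 153 CPM.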

How the data were processed

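RNA-seq of 20 population and 15 clone libraries of Nelfb flox/- MEFs was used. The authors made the deposited counts from stranded poly(A) libraries by aligning reads to mm10 with bowtie2, sorting with SAMtools, skipping alignments with a mapping quality under 30 and counting with HTSeq; the authors tested with DESeq2, and versions and the annotation are not given in the sources used here. bowtie2 does not align across splice junctions, so reads over junctions are underrepresented. The counts are raw, per gene symbol; of all reads in a file, those on no gene were 11.7% to 21.3% in populations and 9.14% to 12.0% in clones and were left out, as were the 0.911% to 1.13% of ambiguous reads.

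Populations and clones were fitted separately with edgeR 4.0.16 in R 4.3.3: TMM scaling, filterByExpr (13805 and 13223 genes kept), 1 mean per group, robust quasi-likelihood F tests, and Benjamini-Hochberg adjustment over all genes kept. A standard error is the size of the log2 fold change divided by the square root of F. The exon lengths and positions come from GENCODE and the promoter windows from RefSeq. Named genes were the 10 members, Nfe2l2, Keap1 and Bach1, up to 5 called genes per direction and comparison of 4 lists (other NRF2 targets, regulators, other antioxidant genes, ATF4 genes), the 3 genes most like each chosen gene, and Nelfb; genes named from blocked fits, and clone genes singled out by level, were chosen after their values were seen. The members and lists were chosen with earlier results of these data known.

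Replicate numbers pair the populations: deviations from the group means correlated by over 0.1 in 45 of 45 pairs of groups (0.42 to 0.73), and the study describes 2 independent experiments. In the clones 1 of 10 pairs of groups did (-0.179 to 0.148), so clone numbers are names only. Alternatives were DESeq2 1.42.0, DESeq2's size factors, no filter on low counts, the replicate block, other WT comparators for the clones and each library left out; where that left 1 library in a group, it was assumed to vary like the others. The steps were tested on simulated data with 200 changed genes. Nothing says that the clones of a group came from separate infections, so their p-values measure the spread between these clones.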

Additional observations from a re-analysis of the deposited data

Results flagged for a closer look

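The effect of Ad-Cre differed between WT and EV by a test of the difference itself for Gclc (-1.11 on the log2 scale), Gsta3 (-2.10) and Maff (-2.05). The calls of Gclc and Gsta3 were lost when any 1 of the 8 EV and WT libraries was left out, and that of Maff when any but replicate 2 of WT-GFP was. For a further set of genes both replicate pairs moved up in EV and down in the other construct. The direction itself was not tested, and the share of all genes that moved so was not counted. With WT the genes of this set were Gclm (difference -0.50), Nqo1 (-1.45), Gsta4 (-3.04) and Hmox1 (-2.02). In WT the Ad-Cre level was 0.973 and 0.982 times the Ad-GFP level for Gclm and 0.940 and 0.958 times for Nqo1. It was 0.767 and 0.881 times for Gsta4 and 0.876 and 0.841 times for Hmox1. With MT194 the gene was Gclm (-0.81), and with MT486 the genes were Gclc (-1.02) and Osgin1 (-0.79). With the replicate block the difference was called for Nqo1 in WT, Gclm in MT194, and Gclc and Osgin1 in MT486. It was not called for Gclm in WT. The block called 13.4%, 0.978% and 2.68% of all genes in the differences of WT, MT194 and MT486. Gsta4 and Hmox1 belong to the genes chosen for such differences. All of these differences rest on the same 4 EV libraries.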

How the results depend on the processing

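The values below count called genes of the NRF2 list, set against the values without the replicate block and with TMM scaling. The list counts for DMT against EV with Ad-Cre, for the difference between the Cre effects of DMT and EV, and for all Ad-GFP comparisons were 0 in every alternative. DESeq2's size factors moved none of the 22 counts by over 1.5 times. DESeq2 itself gave 4 instead of 1 for the Cre effect in MT194 and 1 instead of 0 in MT486, 6 instead of 1 for MT194 and 9 instead of 1 for MT486 against EV with Ad-Cre, 7 instead of 2 for WT, 1 instead of 0 for MT194 and 2 instead of 0 for MT486 in the differences from EV, and in the clones 2 for MT194 against WT, 5 instead of 1 for WT(N48) against WT and 1 for MT486 against MT194. DESeq2 also called 901 (MT194) and 688 (MT486) of all 13805 genes for those Cre effects, and 210 and 410 against EV with Ad-Cre. In the differences from EV it called 420, 19 and 45 genes for WT, MT194 and MT486. Its totals in the clones, taken in the order above, were 1170, 1169 and 800 of 13223 genes. Beside these totals, the clone counts do not single out the list. Without a filter on low counts, MT486 against EV gave 0 and the difference of WT from EV 1. The paired fit with the replicate block gave 3, 9, 8 and 18 for the Cre effects in WT, MT194, MT486 and DMT, 19, 17 and 19 for WT, MT194 and MT486 against EV, and 18, 10 and 13 for their differences from EV. In the clones, whose numbers do not pair them, the block took WT(N48) against WT from 1 to 0 and moved no other clone count. With WT(N48) as comparator, MT194 gave 2 and MT486 1, and with WT clone 2 alone WT(N48) against WT gave 0. Leaving out 1 library at a time gave 7 to 10 for EV, 0 to 1 for MT194 and 2 to 4 for DMT (Cre effects), 2 to 7 for WT and 0 to 0 for MT194 and MT486 against EV, 0 to 0 for WT minus EV, 0 to 6 for Δ-C60 against WT(N48), the 6 without Δ-C60 clone 2, and 0 to 3 for WT(N48) against WT, the 3 without WT(N48) clone 3. The cause of these moves was not tested. How many of all genes were called with the other comparators, or with a library left out, is not given here. Those counts therefore do not single out the list. The direction of 3 uncalled results turned: leaving out libraries gave -0.23 to 0.12 for G6pdx in MT194 against EV with Ad-Cre, above 0 without EV-Cre replicate 1 or MT194-Cre replicate 2, -0.317 to 0.035 for G6pdx in MT486 minus EV, above 0 without EV-Cre replicate 1, and -0.079 to 0.547 for Gclm in DMT after Ad-Cre, below 0 without DMT-GFP replicate 2.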
